A study of Mus musculus with 8 samples.

Results

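The genes described here encode the nuclear-encoded parts of the mitochondrial respiratory chain and of ATP synthase, with the factors that assemble them. They were chosen by name: every listed gene whose symbol starts with Nduf, Uqc, Atp5 or Cox followed by a digit, together with Sdha, Sdhb, Sdhc and Sdhd. This gave 98 of 13774 genes in the table of Ube3a TG livers and 97 of 11773 genes in the table of Ube3a het livers. Of the 98, 44 were grouped under complex I, 4 under complex II, 11 under complex III, 22 under complex IV and 17 under complex V. Cox6b2 was listed in the TG table alone. Another 8 coding genes that the same names cover in the GENCODE M21 annotation were found in neither table under those symbols. The same held for the symbols of 13 subunits encoded in mitochondrial DNA. These genes were therefore not analysed here.

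RNA was sequenced from livers of C57BL/6 mice that had all been fed a 42% high-fat diet for 8 weeks. Ube3a TG homo livers carry and overexpress a Ube3a transgene, and were set against their own WT pair. Ube3a het livers hold 1 knockout and 1 WT allele of Ube3a, and were set against another WT pair. Each of the 4 groups had 2 libraries. The labels name neither the promoter of the transgene nor the sex or age of the mice. No label ties a library to its own mouse, so the p-values measure only the spread between these libraries. UBE3A is a ubiquitin ligase, and the study's title names it as acting against fat accumulation in liver.

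The respiratory chain sits in the inner mitochondrial membrane. Complex I takes electrons from NADH and complex II from succinate, and both hand them to coenzyme Q. Complex III passes them on to cytochrome c, and complex IV uses them to reduce oxygen. Complexes I, III and IV pump protons, and ATP synthase (complex V) uses the resulting gradient to make ATP. In hepatocytes, which are rich in mitochondria, the chain reoxidises the NADH and FADH2 that fatty acid oxidation yields.

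The values are read counts scaled by the authors with 1 factor for each library, called normalised reads here. Reads counted over the listed genes were 44193275 to 47928229 per library in the TG table, against 13171145 to 17748088 in that of het livers. Ube3a itself had 5991 and 5938 normalised reads in TG livers, against 1187 and 1359 in WT livers, and 301 and 279.5 normalised reads in het livers, against 369 and 409 in WT livers of the het table. Both directions are those of the labels. In limma the TG change of 2.23 log2 units had an adjusted p of 0.0586, and the het change of -0.42 had 0.129. Hepatocyte markers summed to 6289516 to 6745814 in TG livers, against 5181487 to 6112605 in WT livers, and to 1862418 to 2053523 in het livers, against 1988192 to 2250416 in WT livers of the het table.

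Within WT livers, the most abundant members per length were in complexes IV and V. Levels between genes are compared as normalised reads per kb of annotated exon, using all exons of any transcript of the gene, so a gene with long, rarely used exons is placed too low. In the WT pair of the TG table Atp5a1, the alpha subunit of the catalytic F1 head, stood at 17042 and 16387 normalised reads per kb. Cox6a1, a small subunit of complex IV, stood at 16377 and 15879. The lower Atp5a1 value and the higher Cox6a1 value were nearly equal. The highest values of the other complexes were 10353 on average for Ndufb9 in complex I, 9867 for Uqcr10 in complex III and 9466 for Sdhd, a membrane anchor of complex II. Assembly factors, which help to build a complex and do not stay in it, had a median of 376 over 19 genes, against 3398 over 74 subunits. They ran from 128 for Ndufaf5 to 1715 for Cox20, above some of the subunits, among them Atp5g1 and Ndufb2. Those 2 subunits have 4912 and 5628 bases of annotated exon, against 883 for Cox20, so they may be placed too low.

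Where a subunit has several isoforms, 1 gene held nearly all of the level in WT liver. Cox7a2 had 4256 and 4316 normalised reads per kb, against 105 and 111 for Cox7a1, the isoform known from heart and muscle. Cox6b1 had 12219 and 11005, against 13.5 and 9.12 for Cox6b2, the isoform known from testis. Ndufa4 had 10196 and 9935, against 61.2 and 57.2 for Ndufa4l2. Both are named after complex I, but the Ndufa4 protein is known as a subunit of complex IV, and without this pair the complex I median in TG stayed at -0.12. Among the 3 genes for the c subunit of the ATP synthase ring, which encode the same mature protein, Atp5g3 had 8742 and 8341. Atp5g1 had 283 and 261, and Atp5g2 had 267 and 255, whose ranges overlap.

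**Figure D1:**
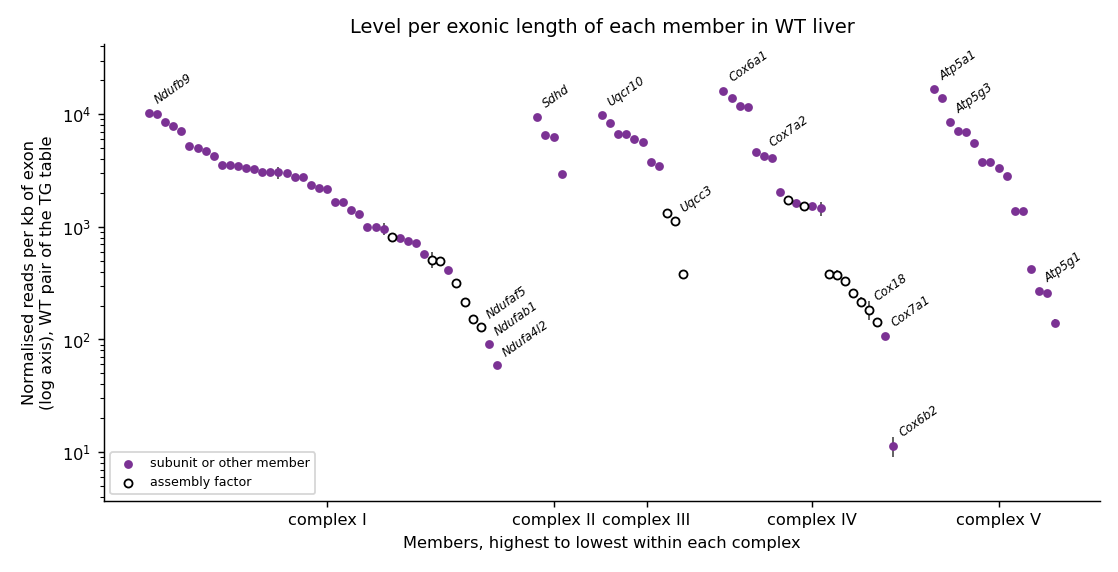
Level of each member with an annotated length in the WT pair of the TG table, as normalised reads per kb of exon on a log axis, ordered within each complex; points are means of the 2 WT libraries and vertical lines join both libraries. Filled points are subunits and other members, open points are assembly factors, most of which lie in the lower part of complexes I, III and IV. Values run from 16128 for Cox6a1 down to 11.3 for Cox6b2 in complex IV.

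In Ube3a TG livers most respiratory chain and ATP synthase genes lay slightly below WT, and none of them passed the test. Of the 98 members 83 had a log2 fold change below 0 and 15 above 0, against 49.8% and 50.2% of all 13774 genes. Their median was -0.13, a difference of -8.72% from WT, against 0.00 over all genes. Limma called 0 members at an adjusted p under 0.05, as it called 0% of all genes. At an unadjusted p under 0.05 it had 0 members higher and 5 lower, against 5.15% and 3.96% of all genes. The edgeR, DESeq2 and limma-voom tests called 0 members each, DESeq2 with 1.36% of all genes called. In 54 members both TG livers lay below both WT livers, a pattern that 21.6% of all genes showed. The opposite pattern was seen in 1 member, Atp5sl, against 21.8% of all genes.

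Gene by gene, the size of the change was close to the gap between the TG libraries and larger than that between the WT libraries. Over the members, the median absolute log2 difference between TG and WT means was 0.14. Between both TG libraries it was 0.12, and between both WT libraries 0.07. In 40 of 98 members, or 40.8%, the group difference was larger than the gap within either pair, against 29.7% of all genes. The median over members of the log2 value minus its WT mean was -0.10 and -0.12 in TG livers. In WT livers it was 0.02 and -0.02. Summed over the members, the libraries held 560036 and 551895 in TG livers, against 618216 and 599896 in WT livers. This was 1.22 and 1.15% of all normalised reads in TG livers, against 1.35 and 1.34% in WT livers.

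**Figure D2:**
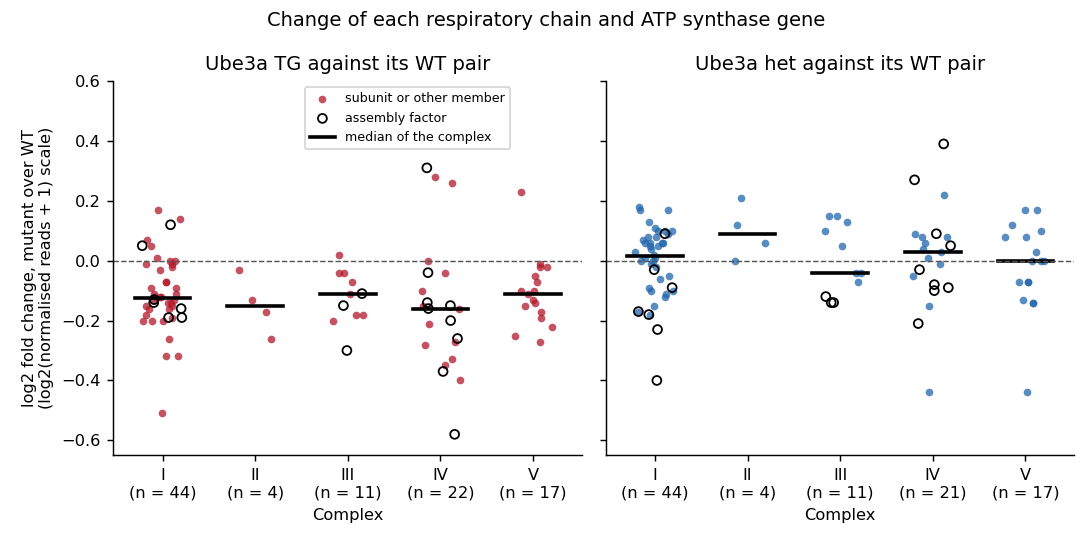
Log2 fold change of every member, TG over its WT pair on the left and het over its WT pair on the right, by complex; each point is a gene, open circles are assembly factors and bars are medians of the complex. All 5 medians lie below 0 in TG, from -0.16 in complex IV to -0.11 in complexes III and V, and within -0.04 to 0.09 in het.

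All complexes had a median below 0 in TG livers. Of all genes 49.8% were below 0 and 21.6% lay below WT without overlap. The median was -0.12 for complex I, where 35 of 44 members were below 0 and 24 lay below WT without overlap. It was -0.15 for complex II, where all 4 members were below 0 and 2 did not overlap. Complex III had -0.11, with 10 of 11 below 0 and 7 without overlap. Complex IV had -0.16, with 18 of 22 below 0 and 12 without overlap. Complex V had -0.11, with 16 of 17 below 0 and 9 without overlap. The medians of complexes II, IV and V moved by more than 1.5 times when 1 library was left out. Complex II had -0.09 without WT replicate 1. Complex IV had -0.25 without TG replicate 1 and -0.09 without TG replicate 2, and complex V had -0.06 without TG replicate 2. Split by role, the medians were -0.11 for 12 core subunits, -0.13 for 47 accessory subunits, -0.15 for 19 assembly factors, -0.15 for 5 subunits of the F1 head and -0.11 for 10 subunits of the membrane and stalk part Fo. The Fo median was -0.21 without TG replicate 1 and -0.03 without TG replicate 2.

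**Figure D3:**
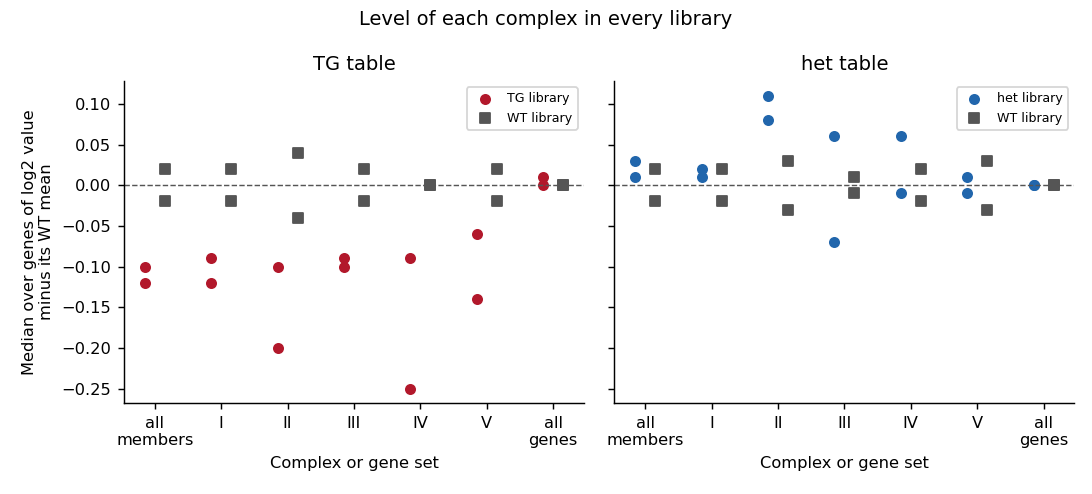
Median over the genes of each complex of the log2 value minus its mean over the WT pair, for every library; mutant libraries are circles left of the WT squares. Both TG libraries lie below both WT libraries for the members as a whole, at -0.10 and -0.12, and the TG libraries of complex IV stand apart from each other, at -0.09 and -0.25.

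Within complex I, the 5 members of smallest p in TG included 3 small accessory subunits of the arm embedded in the membrane. Ndufa3 (GRCm38 chr7:3617373-3620327) had 2072 and 1942 normalised reads in TG livers, against 2891 and 2830.2 in WT livers. Both TG livers lay well below both WT livers, which were close to each other. The log2 fold change was -0.51 (95% confidence interval -0.80 to -0.22, limma adjusted p = 0.454). Ndufb3 had 1907 and 1856 in TG livers, against 2358 and 2355 in WT livers, a log2 fold change of -0.32 (adjusted p = 0.534). Ndufb2 had 1931 and 1809 in TG livers, against 2353 and 2321 in WT livers, a log2 fold change of -0.32 (adjusted p = 0.535). In neither gene did the groups overlap. Ndufv1, the core subunit that accepts electrons from NADH, had 7739.7 and 7748 in TG livers, against 9716 and 8909 in WT livers. Its TG libraries were nearly equal, and the change of -0.26 had an adjusted p of 0.602. Of 7 core subunits in complex I, 5 were below 0, and 4, Ndufv1 among them, lay below WT without overlap. Ndufs1 had 0.05 and Ndufv2 had 0.00, with overlapping groups. The highest value in complex I was that of Ndufa6, with 7693 and 6033 in TG livers, against 6162 and 5916 in WT livers. There the WT libraries agreed and the TG libraries differed, and the change of 0.17 was -0.00 without TG replicate 1. Of 7 complex I assembly factors, 5 were below 0, and Ndufaf4 had 0.12 (adjusted p = 0.839).

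The exons of Ndufa3 overlap those of Tfpt on the opposite strand, and those of Ndufb2 overlap Braf and predicted genes. In all, 34 of the 97 annotated members share exon sequence with another gene, 30 of them with a gene on the opposite strand. Whether counting used strand is not given in the sources used here, so such reads cannot be told apart. A pseudogene with the member's own symbol and the ending -ps exists for 5 members, Atp5c1, Atp5k, Atp5l, Ndufab1 and Uqcrh. Their counts are uncertain for that reason. Pseudogenes with other names were not searched, so the remaining members may have them too.

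Complex II is the succinate dehydrogenase of the citric acid cycle. Its flavoprotein Sdha had 25160.3 and 23838 normalised reads in TG livers, against 29002 and 24779 in WT livers, and the groups overlapped. The iron-sulfur subunit Sdhb had 13080.1 and 11933 in TG livers, against 14107 and 13933 in WT livers, and the membrane anchor Sdhc had 8502 and 7563 in TG livers, against 9975 and 9241 in WT livers. Neither of these overlapped between groups. Sdhc had the lowest log2 fold change of the complex at -0.26 (adjusted p = 0.621). The other anchor, Sdhd, was at -0.03, and at 0.00 without WT replicate 1. In complex III the Rieske iron-sulfur protein Uqcrfs1 had 10465 and 10553 in TG livers, against 11543 and 11177 in WT livers, a log2 fold change of -0.11. The 2 large core proteins differed, with -0.18 for Uqcrc1 and -0.04 for Uqcrc2. The lowest change of complex III was that of Uqcc3, an assembly factor acting on cytochrome b, with 668 and 847 in TG livers, against 936 and 914 in WT livers. Its change of -0.30 had an adjusted p of 0.602. The small subunit Uqcrb was the only member of complex III above 0, at 0.02, and between -0.09 and 0.13 when 1 library was left out.

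Complex IV held the member of smallest p in TG. Cox19, a factor of the intermembrane space linked to copper delivery for complex IV assembly (GRCm38 chr5:139336189-139351418), had 782 and 868 normalised reads in TG livers, against 1228 and 1228 in WT livers. The WT libraries were nearly identical and both TG livers were far below them. The log2 fold change was -0.58 (95% confidence interval -0.88 to -0.27, limma adjusted p = 0.436), or 0.671 of the WT level. Cox6a1, the isoform of subunit 6a made in liver, had 8318 and 8907 in TG livers, against 11497 and 11147 in WT livers. Its log2 fold change of -0.40 had an adjusted p of 0.535 and no overlap. Cox6b1 and Cox8a, both small nuclear subunits, had -0.33 and -0.28, again without overlap. Cox4i1, the regulatory subunit made in most tissues, had 16260.0 and 16262 in TG livers, against 18622 and 17824 in WT livers, a log2 fold change of -0.16. Cox16, which helps to join subunits during assembly, had 466 and 372 in TG livers, against 537 and 542 in WT livers. Its TG libraries differed from each other, and the change was -0.54 without TG replicate 1 and -0.21 without TG replicate 2.

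Other assembly factors of complex IV gave smaller values in TG. The copper chaperone Cox17 was at -0.26, the haem A synthase Cox15 at -0.20, and Cox10, which makes the haem intermediate that Cox15 uses, at -0.04. Cox20, a chaperone of a mitochondrially encoded subunit, had the highest change of all members at 0.31, with 2277 and 1547 in TG livers, against 1435 and 1594 in WT livers. TG replicate 1 alone was high, and the groups overlapped. The low isoforms Cox7a1 and Cox6b2 were at 0.28 and 0.26, with few reads and overlapping groups. Leaving out 1 library turned both directions, to -0.35 for Cox7a1 and -0.07 for Cox6b2. Cox7a2 was at -0.15, Cox7b at -0.21 and Cox7a2l, which links complexes III and IV into supercomplexes, at 0.00.

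**Figure D4:**
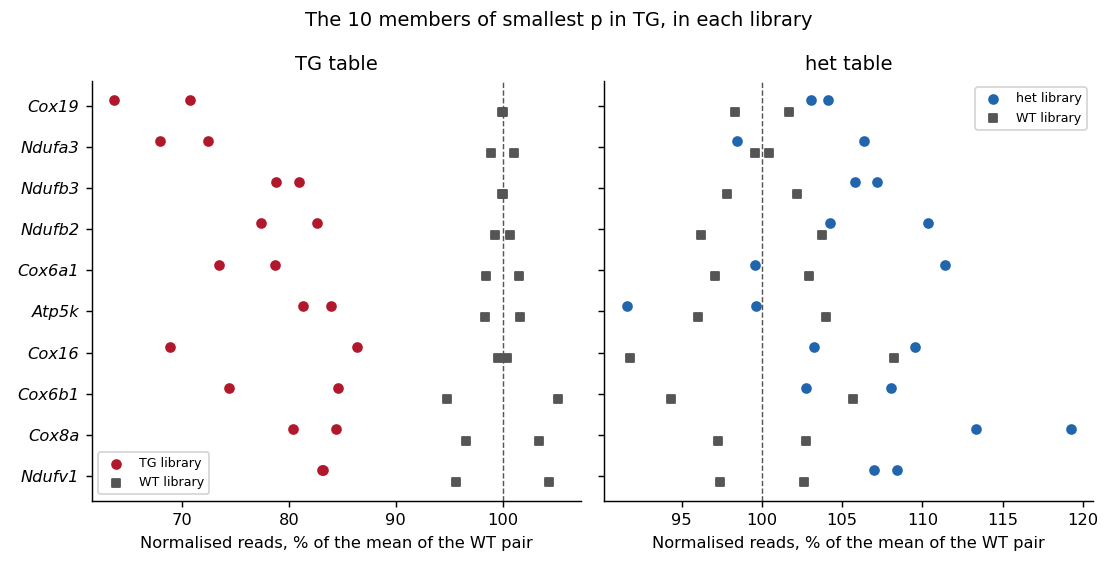
Normalised reads of the 10 members of smallest p in TG, in every library as a percentage of the mean of the WT pair, TG table left and het table right; circles are mutant libraries and squares below them WT libraries. In the TG table both TG livers lie below both WT livers for all 10 genes, which were picked by that comparison. For 5 of the 10, both het livers lie above both of their own WT livers. In het, 34.0% of all members and 24.3% of all genes showed that pattern. Whether these shares differ was not tested.

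ATP synthase genes had a small offset of like size in TG. The catalytic subunit Atp5b had 52159 and 55551 in TG livers, against 61074 and 57033 in WT livers, and its partner Atp5a1 had 46499 and 47889 in TG livers, against 53428 and 51373 in WT livers. The log2 fold change was -0.13 for Atp5b and -0.15 for Atp5a1, neither with overlap. Atp5c1, the central stalk, was at -0.02. Atp5d, which joins that stalk to the ring, had 8384 and 9959 in TG livers, against 10681 and 10649 in WT livers, a log2 fold change of -0.22. Of the c subunit genes, Atp5g3 had 16286 and 15133 in TG livers, against 19066 and 18191 in WT livers. It was the furthest from WT at -0.25, and Atp5g1 and Atp5g2 were at -0.14 and -0.17 with overlapping groups. Atp5k, subunit e, which helps ATP synthase to dimerise, had 3647 and 3532 in TG livers, against 4412 and 4272 in WT livers and the lowest change of complex V at -0.27 (adjusted p = 0.56). Atp5sl was above WT, with 2638 and 2405 in TG livers, against 2353 and 1951 in WT livers, a change of 0.23 (adjusted p = 0.642). Despite its symbol it is no ATP synthase subunit: RefSeq lists it under the symbol Dmac2, a factor known for assembling the membrane arm of complex I.

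The promoters of 5 members are shown because these genes carry the results above: Cox19 and Ndufa3 had the smallest p in TG, Cox6a1 and Cox8a differed most between TG and het among abundant subunits of complex IV, and Atp5g3 is the main c subunit gene. Each is 300 bases of GRCm38.p6 from RefSeq, from 250 before to 50 after the RefSeq start of the gene, 5′ to 3′ on its own strand. They lie at chr5:139345117-139345416 (minus strand), chr7:3617123-3617422 (plus), chr5:115348909-115349208 (minus), chr19:7217567-7217866 (minus) and chr2:73911277-73911576 (minus). The Cox19 window lies inside the GENCODE M21 gene, whose outermost start on the minus strand is at 139351418. It therefore does not cover that start. Capitals mark matches to motifs of factors known to act on respiratory chain genes: GCGCNTGCG for NRF1, CCGGAAGT for the ETS factor GABP and TCAAGGTCA for the oestrogen-related receptors, on either strand. A motif for YY1, AAGATGGCG, was searched as well.
Cox19: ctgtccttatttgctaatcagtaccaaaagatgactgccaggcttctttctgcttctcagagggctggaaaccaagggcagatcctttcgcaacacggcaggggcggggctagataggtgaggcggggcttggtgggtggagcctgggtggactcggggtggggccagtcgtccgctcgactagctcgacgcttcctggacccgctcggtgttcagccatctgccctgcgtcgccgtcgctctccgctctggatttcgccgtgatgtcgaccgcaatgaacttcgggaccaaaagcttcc
Ndufa3: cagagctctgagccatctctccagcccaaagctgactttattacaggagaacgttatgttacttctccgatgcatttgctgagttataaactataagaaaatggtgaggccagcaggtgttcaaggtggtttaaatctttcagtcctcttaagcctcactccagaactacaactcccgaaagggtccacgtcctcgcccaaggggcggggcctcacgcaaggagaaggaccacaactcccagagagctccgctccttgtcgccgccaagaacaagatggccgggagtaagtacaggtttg
Cox6a1: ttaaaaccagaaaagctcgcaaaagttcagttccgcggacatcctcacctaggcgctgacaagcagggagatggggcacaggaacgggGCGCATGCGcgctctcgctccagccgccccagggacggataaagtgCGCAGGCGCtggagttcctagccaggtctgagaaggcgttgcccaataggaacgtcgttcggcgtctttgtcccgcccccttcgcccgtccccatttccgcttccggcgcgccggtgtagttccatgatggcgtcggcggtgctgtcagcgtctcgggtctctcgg
Cox8a: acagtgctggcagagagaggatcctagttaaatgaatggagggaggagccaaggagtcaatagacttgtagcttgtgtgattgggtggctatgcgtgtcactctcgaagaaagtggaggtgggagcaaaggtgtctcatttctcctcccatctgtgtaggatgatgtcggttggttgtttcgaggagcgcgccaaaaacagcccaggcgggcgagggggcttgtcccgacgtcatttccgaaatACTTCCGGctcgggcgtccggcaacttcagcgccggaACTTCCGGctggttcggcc
Atp5g3: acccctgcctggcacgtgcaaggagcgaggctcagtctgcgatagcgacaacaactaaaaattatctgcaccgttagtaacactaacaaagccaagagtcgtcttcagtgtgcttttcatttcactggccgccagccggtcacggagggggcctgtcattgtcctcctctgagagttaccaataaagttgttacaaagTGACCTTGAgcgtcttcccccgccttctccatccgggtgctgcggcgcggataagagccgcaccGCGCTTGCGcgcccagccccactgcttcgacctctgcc

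Cox6a1 held 2 NRF1 matches, starting 162 and 116 bases before the start of the gene. In Cox8a there were 2 GABP matches, 1 starting 6 bases before and the other 31 bases after the start. Atp5g3 held an oestrogen-related receptor match from 52 bases before the start and an NRF1 match from 12 bases after it. Cox19 and Ndufa3 had no match, which says only that these letters are not in those windows. RefSeq gave 88 promoters for 81 of the 98 members. The NRF1 letters were in 28 of the 88, or 31.8%, against 6.3% of all 32851 promoters of that length. GABP letters were in 10.2% against 3.9%, YY1 letters in 11.4% against 1.4% and those of the oestrogen-related receptors in 2.3% against 0.4%. Member promoters held a median of 20 CG pairs, against 7 in all promoters, and the NRF1, GABP and YY1 motifs all contain CG. The median log2 fold change in TG was -0.12 over 26 members with an NRF1 match and -0.14 over 55 without. For GABP it was -0.15 over 9 members and -0.14 over 72 without, for YY1 -0.07 over 9 members and -0.14 over 72 without. In het the medians with and without a match were 0.00 and 0.01 for NRF1, 0.00 and 0.01 for GABP and -0.01 and 0.01 for YY1. The oestrogen-related receptor letters were in 2 members, with medians of -0.14 in TG and 0.10 in het.

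In het livers the median change of the members was close to 0, and their summed reads were slightly above WT. The median log2 fold change was 0.01 over 97 members, against -0.00 over all 11773 genes. Of the members 54 were above and 43 below 0, against 49.9% and 50.1% of all genes. Limma called 0 members at an adjusted p under 0.05, while it called 1.44% of all genes, 0.892% higher and 0.544% lower. At an unadjusted p under 0.05 there were 2 members higher and 2 lower, against 8.58% and 6.11% of all genes. The edgeR, DESeq2 and limma-voom tests also called 0 members, with 1.55, 2.45 and 1.44% of all genes called. Both het livers lay above both WT livers in 33 members, or 34.0%, against 24.3% of all genes. They lay below in 16, or 16.5%, against 23.7%. Summed over members, the libraries held 223559 and 223062 in het livers, against 211447 and 215930 in WT livers. This was 1.46 and 1.47% of all normalised reads in het livers, against 1.4 and 1.44% in WT livers.

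By role, none of the groups held a called member in het. Of 12 core subunits 10 had a log2 fold change above 0, with a median of 0.08. Of the same 12, 7 lay above WT without overlap, against 24.3% of all genes. Of 5 F1 subunits 4 were above 0, with a median of 0.12. Of 10 Fo subunits 4 were above 0 and 6 below, with a median of -0.00. Of 46 accessory subunits 28 were above 0 and 18 below, with a median of 0.03. Of 19 assembly factors 14 were below 0, with a median of -0.09, and 6 lay below WT without overlap, against 23.7% of all genes. With 1 library left out, the median of core subunits was 0.05 to 0.11, and that of assembly factors -0.16 (without WT replicate 1) to -0.04 (without WT replicate 2). Cox15 and Cox18, the highest members in het, are assembly factors as well. Sdha had 10213 and 9563 normalised reads in het livers, against 8496 and 8567 in WT livers, a change of 0.21 (adjusted p = 0.421). Atp5b had 21415 and 20043 in het livers, against 18099.5 and 18611 in WT livers, and Atp5a1 had 19403 and 18628 in het livers, against 16437 and 17458 in WT livers. Both changes were 0.17, with no overlap, and neither passed. In complex III, Uqcrc2 had the highest change at 0.15 and Uqcrfs1 was at 0.13. All 3 assembly factors of complex III were below 0, between -0.14 for Uqcc2 and -0.12 for Uqcc1.

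The 2 members of smallest p in het were Atp5sl and Ndufaf4. Atp5sl is grouped under complex V by its name and is not among the 19 assembly factors counted above. Atp5sl had 534 and 534 normalised reads in het livers, against 700.1 and 755 in WT livers. The het libraries were nearly equal and both lay below WT, with a log2 fold change of -0.44 (95% confidence interval -0.66 to -0.23, limma adjusted p = 0.0695). Ndufaf4, an assembly factor of complex I, had 469.7 and 474 in het livers, against 602 and 642 in WT livers, a change of -0.40 (adjusted p = 0.0996). Cox15 and Cox18 were the highest at 0.27 and 0.39 (adjusted p = 0.302 and 0.327). Cox15 had 525 and 604 in het livers, against 484 and 450.1 in WT livers, and Cox18 had 159 and 139 in het livers, against 124 and 104 in WT livers. Cox8a had 3664 and 3856 in het livers, against 3322 and 3144 in WT livers, the highest change among complex IV subunits at 0.22 (adjusted p = 0.367). Of the other named subunits Ndufa10 was at 0.17, Ndufa6 at -0.18 and Ndufs7 at -0.17. Cox7a1 had 25.9 and 23.0 in het livers, against 30.2 and 36.9 in WT livers, so its change of -0.44 rests on few reads.

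By complex, the het medians were 0.02 for complex I, 0.09 for complex II, -0.04 for complex III, 0.03 for complex IV and -0.00 for complex V. Complex II was the only complex whose 4 members were all at or above 0, Sdhb at 0.00 with 4689 and 4082 in het livers, against 4193 and 4561 in WT livers. Sdhb lay on either side of 0 when 1 library was left out, from -0.10 to 0.10. The medians of complexes III, IV and V crossed 0 in the same way: from -0.07 without het replicate 2 to 0.06 without het replicate 1 in complex III, from -0.01 without het replicate 2 to 0.06 without het replicate 1 in complex IV, and from -0.04 without WT replicate 1 to 0.05 without WT replicate 2 in complex V. Isoforms of low level gave no resolved change. Ndufa4l2 was at 0.07 and Atp5g2 at 0.00, both with overlapping groups.

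Whether TG and het livers differ from their own WT pairs to a different extent was tested as the difference of both effects, TG minus het, in a joint fit of 8 libraries. Over 97 members the median difference was -0.13, against 0.01 over all 11754 genes fitted. It was below 0 in 79 members and above 0 in 18, against 48.4% and 51.6% of all genes. Limma called 0 members at an adjusted p under 0.05, against 0.434% of all genes, 0.204% higher and 0.23% lower. At an unadjusted p under 0.05 there were 2 members higher and 10 lower, against 8.42% and 8.28% of all genes. The edgeR, DESeq2 and limma-voom tests called 0 members, and 0.374, 3.16 and 0.255% of all genes. All complexes had a median below 0: -0.08 in complex I, -0.24 in complex II, -0.16 in complex III, -0.20 in complex IV and -0.10 in complex V. With 1 library left out these moved to as little as -0.03 in complex III (without TG replicate 1), -0.11 in complex IV and -0.04 in complex V (both without TG replicate 2).

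Cox19 had the smallest p of this difference, -0.63 (95% confidence interval -0.95 to -0.31, adjusted p = 0.111). Its het table values were 449.9 and 454 in het livers, against 429 and 444 in WT livers, which do not overlap but lie close together. It was called when TG replicate 2 was left out, at -0.70 (adjusted p = 0.0387), a setting in which 5.47% of all genes were called. Ndufa3 had a difference of -0.54 and Atp5sl, in the other direction, 0.68 (adjusted p = 0.133 each). The next members by p were Ndufb3 with -0.42, Cox8a with -0.50, Ndufb2 with -0.42, Cox6a1 with -0.47, Cox15 with -0.47, Ndufa10 with -0.37 and Ndufv1 with -0.37, at adjusted p from 0.184 to 0.272. Ndufaf4 was at 0.52 (adjusted p = 0.281). At the far ends of other complexes were Uqcr10 with -0.35, Atp5d with -0.35 and Sdha with -0.34. Cox7a1 had the highest value, 0.72, with an interval of -0.60 to 2.04.

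Below 0 in TG and above 0 in het were 50 of 97 members, or 51.5%, against 29% of all genes. Another 33 were below 0 in both, 10 above 0 in TG and below 0 in het, and 4 above 0 in both. In 21 members both TG livers lay below both of their WT livers and both het livers above both of theirs, which 7.86% of all genes did. Complex I gave 9 of these, among them Ndufa4, Ndufa10, Ndufaf7, Ndufb2, Ndufb3, Ndufb4, Ndufc1 and Ndufv1. Complex III gave Uqcr10, Uqcrc1 and Uqcrfs1, and complex IV gave Cox7a2, Cox8a, Cox15 and Cox19. Complex V gave Atp5a1, Atp5b, Atp5d, Atp5f1 and Atp5g3. These counts describe the tables, and the difference of the effects was not called for any of the 21. Across the 97 members the log2 fold changes of TG and het had a Pearson r of -0.44 and a Spearman rho of -0.34. Over all 11754 genes the values were -0.32 and -0.26. These are descriptions across genes that share their libraries; the 2 tables have no library in common.

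**Figure D5:**
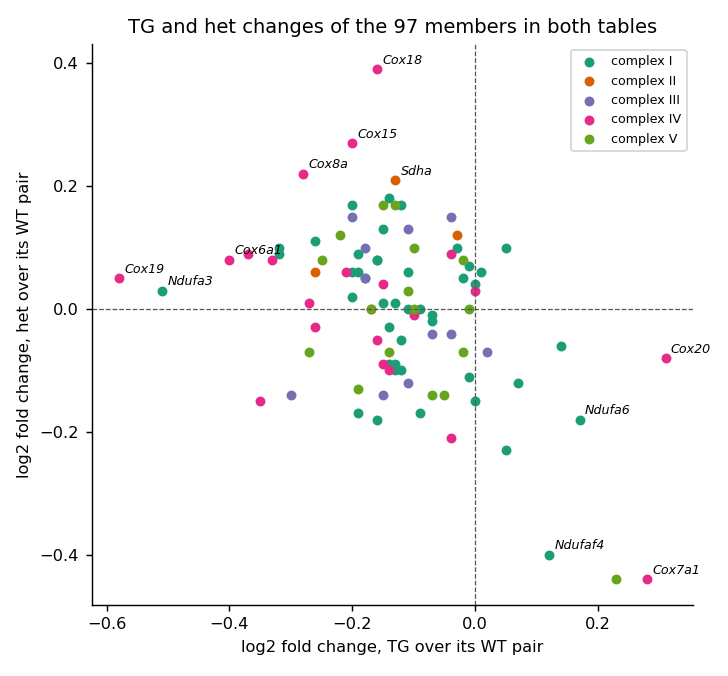
Log2 fold change of each of the 97 members in both tables, TG over its WT pair across and het over its WT pair upwards, coloured by complex. The upper left part, below 0 in TG and above 0 in het, holds 50 members, with Cox19 furthest left at -0.58 and Cox18 highest at 0.39; Atp5sl, Cox7a1 and Ndufaf4 lie at the lower right.

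Genes that work with the chain were described beside it. Limma called 0 genes of each of these lists in TG and in het. Assembly factors that the name rule does not reach had 31 of 37 below 0 in TG, with a median of -0.14, and a median of -0.01 in het. Of 13 measured coenzyme Q synthesis genes 10 were below 0 in TG, at a median of -0.15, and 8 above 0 in het, at 0.10. With 1 library left out these medians were -0.22 (without TG replicate 2) to -0.08 (without TG replicate 1) in TG and 0.03 (without WT replicate 1) to 0.14 (without het replicate 1) in het. Of 14 citric acid cycle genes 10 were below 0 in TG, at -0.10, and 13 above 0 in het, at 0.16. Their values summed to 113167 to 118980 in TG livers, against 127306 to 128769 in WT livers, and to 45045 to 45774 in het livers, against 38363 to 40876 in WT livers of the het table. Cyc1, the cytochrome c1 of complex III, was at -0.07 in TG and 0.06 in het, and Cycs, cytochrome c, at 0.06 and 0.11. Genes for the outer membrane and protein import had a median of -0.12 over 19 in TG, which was -0.06 without WT replicate 2, and -0.03 in het, which was 0.03 without het replicate 1.

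Mitochondrial ribosomal protein genes, whose products translate the subunits encoded in mitochondrial DNA, had 66 of 77 below 0 in TG, at a median of -0.12, and 46 of 77 below 0 in het, at -0.01. Cytosolic ribosomal protein genes had 62 of 70 above 0 in TG, at a median of 0.17, and 60 of 68 below 0 in het, at -0.11. These medians were 0.11 without WT replicate 2 in TG and -0.20 (without WT replicate 2) to -0.01 (without WT replicate 1) in het. Of this list Rpl29 was called for the difference of the effects, at -1.03 (limma adjusted p = 0.0493), a call that was lost without either WT library of the TG table or any library of the het table (0.0797 to 0.254). Of 18 regulators of mitochondrial biogenesis 10 were above 0 in TG, with a median of 0.06, and 7 above 0 in het, at -0.03. The TG median was -0.02 without WT replicate 1, and the het median was -0.12 without WT replicate 1. Ppargc1a, the coactivator PGC-1alpha that drives expression of respiratory chain genes, had 905 and 947 normalised reads in TG livers, against 525 and 529 in WT livers. Both TG livers stood above WT by 0.81 log2 units (95% confidence interval 0.50 to 1.12, limma adjusted p = 0.267, and 0.00199 in DESeq2). In the het table it had 147 and 156 in het livers, against 140.4 and 161 in WT livers. Esrra, a nuclear receptor and partner of that coactivator, was at -0.14 in TG and -0.15 in het, with overlapping groups in both.

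Markers of other liver cells differed between the groups as well, and in bulk tissue fewer cells of a type and less RNA per cell cannot be told apart. All 14 endothelial markers were below 0 in TG, at a median of -0.30, and summed to 16763 to 17000 in TG livers, against 20300 to 20631 in WT livers. In het 13 of 14 were above 0, at 0.33, and summed to 6245 to 6376 in het livers, against 5161 to 5494 in WT livers. With all libraries, limma called Lyve1 at 0.92 and Gpr182 at 0.67 (adjusted p = 0.0403 and 0.0442). The call of Gpr182 was lost with any 1 of the 4 libraries left out (adjusted p 0.0858 to 0.224), and that of Lyve1 without het replicate 1, het replicate 2 or WT replicate 1 (0.119 to 0.197). Both were also lost without robust estimates (0.0675 for Gpr182 and 0.0631 for Lyve1) and in a single fit of all 8 libraries (0.17 and 0.511), and Gpr182 in DESeq2 (0.0547) and among genes with a mean CPM of at least 5 (0.05). Kupffer cell and macrophage markers had 14 of 15 below 0 in TG, at -0.35, and 12 of 14 above 0 in het, at 0.21. The TG median was -0.53 without TG replicate 2 and -0.08 without TG replicate 1, while in het leaving out het replicate 2 gave -0.04 and leaving out het replicate 1 gave 0.44. Their sums were 22222 to 30126 in TG livers, against 33959 to 36244 in WT livers, and 9639 to 13314 in het livers, against 8297 to 11383 in WT livers of the het table. Hepatocyte markers had 13 of 14 above 0 in TG, at 0.36, and 5 of 14 above 0 in het, at -0.09, which was 0.04 without WT replicate 1. Stellate cell markers were at -0.13 in TG, 0.20 without TG replicate 2, and at -0.08 in het, 0.03 without WT replicate 2. Of 12 muscle markers 2 were listed in the TG table, summing to 280 to 359 in TG livers, against 256 to 275 in WT livers. The part of these cell types in the values of the members was not tested.

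Log2 fold changes of the members were also set against exonic length and level. Across 97 members with a length, from 419 to 8086 bases of exon, Spearman's rho between length and log2 fold change was 0.02 in TG. Across 96 members it was 0.23 in het. With the mean level, rho was -0.03 in TG and 0.39 in het, so the more abundant members tended to lie higher in het. These are descriptions across genes that share libraries. The members lie on 19 chromosomes, with at most 8 on 1 chromosome.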

How the data were processed

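RNA-seq of 8 mouse liver libraries was analysed from 2 gene tables, 1 for Ube3a TG livers and 1 for Ube3a het livers, each with its own WT pair. Per the submitters' processing notes, the builds mm10 and GRCm38 were used, along with the tools featureCounts, Subread 1.5.2 and DESeq2, whose roles are not given there. The first WT library of the TG table holds whole-number counts as deposited. The other deposited columns are a signal scale: counts divided by 1 factor per library by the authors, from which whole reads were recovered in 100% of values (tolerance 0.01). The edgeR test on those reads called 0 of 13774 genes in TG, 182 of 11773 in het and 44 of 11754 for the difference of the effects.

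Values were tested within each table as log2(value + 1) with limma 3.58.1 (trend and robust estimates, R 4.3.3), with Benjamini-Hochberg adjustment over all genes and a threshold of 0.05. A joint fit over 11754 genes tested the TG effect minus the het effect. Fold changes are on the log2(value + 1) scale, which understates changes of low genes. The lowest mean of a listed gene was 11.2 in the TG table and 17.8 in the het table. Names that had turned into dates, 20 in the TG table and 18 in the het table, were not joined. Gene lengths and positions came from GENCODE M21, and promoters from RefSeq. All scripts that fit models were tested on simulated data.

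Members and lists were chosen with earlier results of these data known, and the ribosomal protein lists after seeing the data. Named members are the 10 of smallest p in each comparison, the highest and lowest change and the highest level of each complex, and isoform families. Ube3a, Ppargc1a, Esrra and called genes of the other lists are named too. Genes named beyond this rule serve to fill in the roles of a complex. The values of 1 member are not reported here. Alternatives were other pseudocounts (0.5 and 5), a mean CPM of at least 5, TMM scaling, library totals without the 20 most abundant genes, edgeR 4.0.16, DESeq2 1.42.0, limma-voom, no robust estimates, all 8 libraries in a single fit, a replicate block and each library left out. Depth is given as reads counted over the listed genes of each library, and with 2 libraries a group the precision is set mainly by their spread.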

Additional observations from a re-analysis of the deposited data

Results flagged for a closer look

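Of the 51 genes that limma with Benjamini-Hochberg adjustment called for the difference of the TG and het effects, 4 are named here: Ube3a and called genes of the described lists. Ube3a had a difference of 2.65 log2 units (adjusted p = 0.00157), as the labelled genotypes imply. Gpr182, an endothelial receptor, had -1.07 (adjusted p = 0.0457), with 760 and 746 normalised reads in TG livers, against 1034 and 964 in WT livers, and 317 and 367 in het livers, against 208 and 221 in WT livers of the het table. Adrb3, the beta-3 adrenergic receptor, had 4.58 (adjusted p = 0.0442), with 952 and 343 in TG livers, against 42.0 and 50.5 in WT livers, and 49.99 and 46.01 in het livers, against 79.96 and 113.80 in WT livers of the het table. The TG libraries of Adrb3 differ from each other by more than its 2 WT libraries do. Rpl29, a cytosolic ribosomal protein gene with named pseudogenes, so that its counts are uncertain, had -1.03 (adjusted p = 0.0493), with 1681 and 1619 in TG livers, against 3790 and 3355 in WT livers, and 1267 and 1414 in het livers, against 1496 and 1347 in WT livers of the het table. Its list was added after the data were seen. The calls of Gpr182, Adrb3 and Rpl29 were lost in several settings: Gpr182 without either WT library of the TG table or any library of the het table (adjusted p 0.0961 to 0.235), and Adrb3 (0.114 to 0.25) and Rpl29 (0.0797 to 0.254) without the same libraries. With all libraries kept, they were lost with the replicate block (adjusted p 0.0616 for Gpr182, 0.0787 for Adrb3 and 0.0811 for Rpl29), with limma-voom (0.0707, 0.211 and 0.0652) and with library totals that omit the 20 most abundant genes (0.0537, 0.0532 and 0.0574). Gpr182 and Rpl29 were lost without robust estimates (0.0564 and 0.0608), Adrb3 and Rpl29 with edgeR (0.0635 and 0.0549), and Rpl29 among genes with a mean CPM of at least 5 (0.052).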

How the results depend on the processing

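No member was called in TG or in het under any of the alternatives. For the difference of the effects 1 member, Cox19, was called, and only without TG replicate 2, so counts ranged from 0 to 1 with a library left out. Leaving out a library leaves a lone sample in its group that is assumed to vary like the others. Calls over all genes moved more: DESeq2 called 188 genes in TG against 0 in limma, 289 against 169 in het and 371 against 51 for the difference, where limma-voom called 30.

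With library totals that omit the 20 most abundant genes, the median was -0.16 over members, -0.16 in complex I and -0.15 in complex III in TG, and -0.00 over members and 0.00 in complex I in het. With a library left out, the TG median ranged from -0.14 to -0.10 over members, -0.13 to -0.09 in complex I, -0.12 to -0.09 in complex III, -0.25 to -0.09 in complex IV and -0.14 to -0.06 in complex V. In het it ranged from 0.01 to 0.04 over members, 0.01 to 0.04 in complex I, -0.07 to 0.06 in complex III, -0.01 to 0.06 in complex IV and -0.04 to 0.05 in complex V. The difference ranged from -0.16 to -0.11 over members, -0.12 to -0.07 in complex I, -0.18 to -0.03 in complex III, -0.27 to -0.11 in complex IV and -0.20 to -0.04 in complex V.

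Some values near 0 crossed it, and the cause was not tested. Without the 20 most abundant genes, Uqcrb in TG was at -0.01, Cox7a2l in TG at -0.03, Sdhb in het at -0.02, Atp5g2 in het at -0.01, Ppargc1a in het at -0.00 and the Esrra difference at -0.00. With TMM, Sdhb and Atp5g2 in het and Cox7a2l in TG were at -0.00. With edgeR, Sdhb was at -0.00, Cox7a2l at -0.00, Atp5g2 at -0.01 and Ndufa4l2 in TG at 0.11. With DESeq2, Cox7a2l was at -0.00, Atp5g2 at -0.01 and Ndufa4l2 at 0.11, and with limma-voom Sdhb was at -0.01 and Cox7a2l at -0.00. With a library left out, TG values ranged from -0.00 to 0.35 for Ndufa6, -0.06 to 0.00 for Sdhd, -0.09 to 0.13 for Uqcrb, -0.07 to 0.59 for Cox6b2, -0.35 to 0.92 for Cox7a1, -0.09 to 0.09 for Cox7a2l, -0.61 to 0.58 for Ndufa4l2, -0.39 to 0.05 for Atp5g2 and -0.28 to 0.00 for Esrra. Het values ranged from -0.10 to 0.10 for Sdhb, -0.01 to 0.16 for Cox6a1, -0.14 to 0.04 for Cox4i1, -0.00 to 0.16 for Cox6b1, -0.16 to 0.22 for Cox7a2l, -0.09 to 0.22 for Ndufa4l2, -0.14 to 0.00 for Atp5g1, -0.15 to 0.15 for Atp5g2, -0.08 to 0.11 for Ppargc1a and -0.32 to 0.01 for Esrra. The difference ranged from -0.02 to 0.20 for Uqcrb and -0.15 to 0.18 for Esrra. Of the other single-gene values, 929 under other settings and 398 with a library left out kept their direction and side of the threshold. Calls were lost for Lyve1, Gpr182, Adrb3 and Rpl29, and gained for Ube3a and Ppargc1a in TG with DESeq2 (adjusted p = 4.92e-34 and 0.00199). Ube3a in TG was also called in the single fit of all 8 libraries (limma adjusted p = 0.000447).

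The labels give no pairing behind replicate numbers. Same-numbered libraries deviated with a correlation of 0.131 in TG and -0.08 in het, with 2 pairs each. With the replicate block, 0 members were called in each comparison, with 0, 1.17 and 0.391% of all genes called in TG, het and the difference. With 2 libraries a group and values given as normalised reads, the genes of low level, such as Cox7a1 and Cox6b2, are the least precise.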

Other observations

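Some lists hold few listed genes and were not described above. Of 6 brown fat markers 3 were listed, Elovl3, Adrb3 and Ppargc1a, and they went in different directions. Their log2 fold changes were -2.02, 3.60 and 0.81 in TG, and 1.58, -0.98 and 0.01 in het. Sums were 1814 to 1920 in TG livers, against 1197 to 1449 in WT livers. In the het table they were 510 to 585 in het livers, against 357 to 381 in WT livers. Of 13 lymphocyte and neutrophil markers 12 were listed in the TG table, with 9 below 0, a median log2 fold change of -0.24 (0.02 without TG replicate 2) and sums of 245 to 450 in TG livers, against 443 to 482 in WT livers. Of 6 cholangiocyte markers 5 were listed there, with sums of 1453 to 1742 in TG livers, against 1458 to 2378 in WT livers. For het livers the lists held 3 listed lymphocyte and neutrophil markers and 1 cholangiocyte marker. Of the erythroid markers 1 was listed in each table, Alas2, with 595 to 718 in TG livers, against 837 to 1468 in WT livers, and 720 to 840 in het livers, against 506 to 690 in WT livers of the het table. Limma called no gene of these lists in TG or in het.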
